A study of Rattus norvegicus with 35 samples.

Results

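Matrix metalloproteases (MMPs), ADAMs (a disintegrin and metalloprotease), ADAMTS proteases and the tissue inhibitors of metalloproteases (TIMPs) were followed in the olfactory epithelium of Brown Norway rats from birth to old age. The members were the non-control probes whose gene name in the array files begins with Mmp, Timp or Adam followed by a digit, t or d, which gave 67 genes, measured by 76 of the 41012 probes on the array. They comprised 26 probes for 23 MMP genes, 26 probes for 21 ADAM genes, 17 probes for 16 ADAMTS genes, 4 probes for 4 ADAMTS-like genes and 3 probes for Timp1, Timp2 and Timp3. Total RNA was hybridised to 35 one-colour Agilent 44K arrays. The newborn group held 19 pups aged 3 to 5 days from 4 litters, of sex not known, named here L1 (4 pups) and L2, L3 and L4 (5 pups each), with 1 side of the nose and 1 array per pup. The adult group was 4 male rats of 9 weeks (rats 13 to 16) and the old group 4 male rats of 22 months (rats 17 to 20), each with 1 array for each side, whose values were averaged so that the rat was the replicate. The labels name no treatment or genetic change in any group, and pups were bought with their mothers. In comparisons with pups, age and sex cannot be told apart, because the sex of the pups is not given.

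MMPs are secreted or membrane-bound zinc enzymes that are made as inactive proenzymes and cut collagens, gelatins, elastin and other matrix proteins. ADAMs are anchored in the cell membrane, where several release the outer part of growth factors and receptors such as Notch. ADAMTS enzymes are secreted and cut aggrecan, versican, procollagens or von Willebrand factor, whereas the ADAMTS-like proteins have no catalytic domain. TIMPs bind the active site of MMPs and of some ADAMs. In the nose these enzymes are known for their part in the turnover of the lamina propria, cartilage and bone beneath the epithelium, and in the continual replacement of sensory neurons and their axons.

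Levels are given as log2 of the background-subtracted signal over the median of its array, so that 0 is the array's median and 1 unit is a 2-fold difference. They compare 1 probe between rats and not 1 gene with another. A transcript was expressed in a group when it was above background on at least 3 arrays of a litter or 6 of the 8 arrays of adult or old rats. In age comparisons a member was called when limma's moderated test gave an adjusted p under 0.01 over the 23668 transcripts expressed in every group and the fold was at least 2. The number of transcripts above background ran from 24484 to 28361 per array. The tissue label held for sensory neurons: 7 of 7 measured markers of mature neurons, among them Omp, were expressed in all 6 groups, and their summed level (linear, in units of the array median) ran from 171 to 383 in pups, 1003 to 1358 in adults and 1337 to 1794 in old rats. Adult arrays were scanned on days of their own, and their signals were extracted with an earlier release of the Agilent Feature Extraction software. Adult age, scan day and software release thus cannot be told apart. L1 and the old rats shared a scan day, and L2 to L4 were scanned on other days.

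Of the 76 probes, 36 probes (29 genes) were expressed in every group, 15 were expressed in some groups and 25 in none. The ADAM probes did not vary in this respect, since 16 of 26 were expressed in each of the 6 groups. For the ADAMTS probes the number expressed was 8 to 10 of 17 in the litters and 4 in adult and in old rats, and for the MMPs it was 14 to 17 of 26 in the litters, 13 in adults and 14 in old rats. Over all members 59.2% to 64.5% of probes were expressed in a litter, 51.3% in adults and 52.6% in old rats, whereas over all probes of the array the share was 62.9% to 66.7%, 63.6% and 62.6%. All 3 Timps and 3 of the 4 ADAMTS-like genes were expressed throughout. The 11 members above background on no array were Adam3, Adam6, Adam11, Adam18, Adam34, Adamdec1, Adamts6, Adamts16, Adamts20, Mmp21 and Mmp27, of which Adam3 and Adam18 are known from the testis. A further 14 probes were above background on some arrays but expressed in no group.

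Pups had more transcript than old rats for the gelatinases Mmp2 and Mmp9, the membrane protease Mmp14, Mmp13, Mmp23, Adamts5, Adamts9 and Timp1, and less for Mmp12, Adam23, Adam28, Adamtsl3 and Adamtsl4. Of the 36 member probes tested, 9 probes (25.0%) were higher in newborns, against 9.55% of all transcripts, and 5 (13.9%) were lower, against 8.86% (14 in either direction, 38.9% against 18.4%). In the comparison of newborn with adult rats, 7 probes (19.4%) were higher, against 13.9% of all transcripts, and 7 (19.4%) were lower, against 9.05% (38.9% against 22.9% in either direction). Between adult and old rats 6 probes (16.7%) were higher in adults, against 4.66%, and 2 (5.56%) were higher in old rats, against 7.49% (22.2% against 12.1% in either direction). Without a required fold, 28, 27 and 19 member probes were called for pups against adults, pups against old rats and adults against old rats, which was 77.8%, 75% and 52.8% against 66.4%, 59.9% and 47.2% of all transcripts. At 5-fold the counts were 1, 6 and 2 (2.78%, 16.7% and 5.56% against 2.18%, 2.83% and 0.330%). The adult rats entered 2 of these comparisons and the pups and the old rats 2 each, so they are not independent. At 2-fold none of the 16 ADAM probes was called higher in pups, whereas 5 of the 11 MMP probes were called higher in pups than in adults and 6 in pups than in old rats. Over all transcripts the median log2 change was 0.15 for newborn against adult, -0.03 for newborn against old and -0.18 for adult against old, and for the 36 member probes it was 0.15, 0.08 and 0.28. Scaled to the 75th percentile of each array, the split became 6 higher and 11 lower for newborn against adult and 8 higher and 1 lower for adult against old, and with normexp background correction and quantile normalization the adult against old split was 5 higher and 0 lower.

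**Figure D1:**
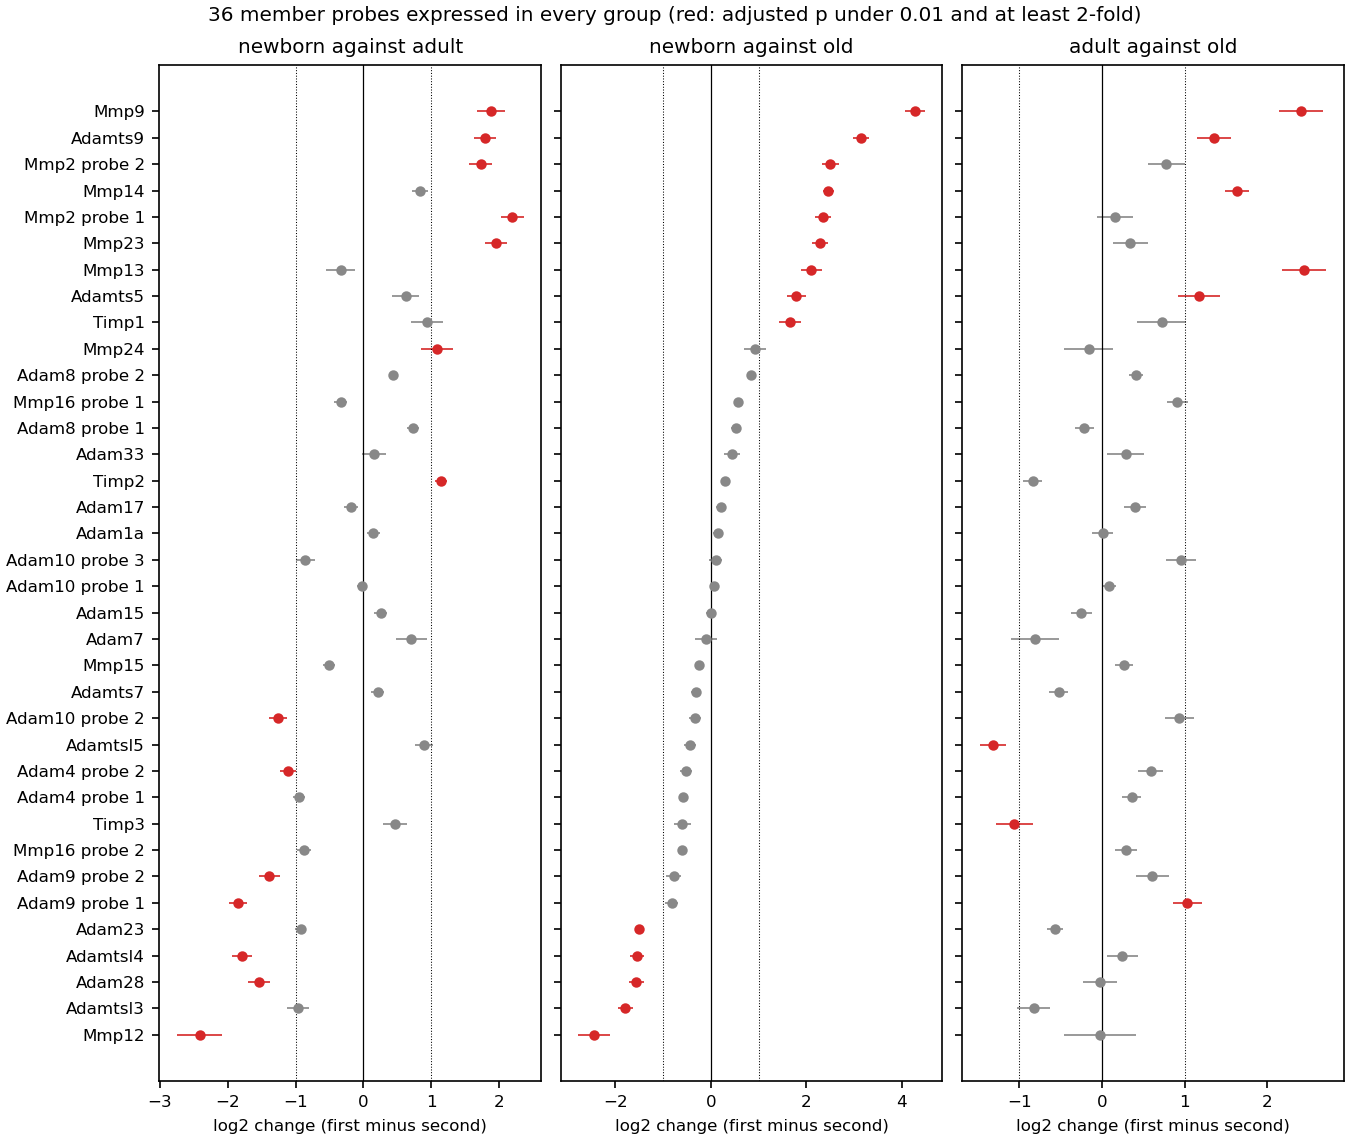
Log2 change (first group minus second, point) with its SE (bar) for the 36 member probes expressed in every group, in the 3 age comparisons. Red points were called, dotted lines mark 2-fold, and rows are ordered by the change of newborn against old rats, with Mmp9 at the top (4.28) and Mmp12 at the bottom (-2.44).

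Mmp2 (gelatinase A, which cuts denatured and type IV collagen) was measured by 2 probes. The brighter, probe 2, ran from 6.46 to 8.12 in the pups (median 7.50), and was 5.22, 6.0, 5.40 and 6.14 in the adult rats and 5.30, 4.49, 4.94 and 4.93 in the old rats. All pups were above all older rats, and pups exceeded adults 3.31-fold (log2 change 1.73 ± 0.17 (SE), adjusted p = 2.66e-09) and old rats 5.68-fold (log2 change 2.51 ± 0.17 (SE), adjusted p = 6.00e-12). Probe 1 gave 2.19 and 2.35 for the same comparisons. Mmp9 (gelatinase B, known from osteoclasts and neutrophils) had the largest change of any member in the common set. It ran from 5.22 to 7.03 in the pups (median 6.18), was 3.61, 4.64, 4.07 and 4.96 in the adults and 2.58, 1.28, 2.16 and 1.65 in the old rats. The 3 ages did not overlap, and the level fell at each step: pups were 3.67-fold above adults (log2 change 1.88 ± 0.21 (SE), adjusted p = 1.69e-08), adults 5.29-fold above old rats (log2 change 2.40 ± 0.27 (SE), adjusted p = 5.86e-08) and pups 19.4-fold above old rats (log2 change 4.28 ± 0.21 (SE), adjusted p = 9.58e-15).

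Mmp14 is the membrane-type protease that, with Timp2 as a bridge, activates the proenzyme of Mmp2. Its level ran from 6.79 to 8.24 in the pups (median 7.47), was 6.29, 6.85, 6.50 and 6.84 in adults and 5.10, 4.90, 5.0 and 4.95 in old rats. The old rats lay within a narrow range below all others, 5.51-fold under the pups (log2 change 2.46 ± 0.12 (SE), adjusted p = 3.99e-15) and 3.09-fold under the adults (log2 change 1.63 ± 0.15 (SE), adjusted p = 2.35e-09), while the difference between pups and adults stayed under 2-fold (log2 change 0.83 ± 0.12 (SE), adjusted p = 5.29e-07). Mmp13 (collagenase 3, made by osteoblasts and hypertrophic chondrocytes) differed in that the 4 adults lay within the range of the pups. It ran from 6.95 to 9.14 in the pups (median 7.74), was 7.44, 8.63, 8.05 and 8.87 in adults and 6.13, 5.17, 5.77 and 6.16 in old rats. Adult and newborn ranges overlapped (log2 change -0.34 ± 0.21 (SE), adjusted p = 0.153), and old rats were below both, 5.43-fold under adults (log2 change 2.44 ± 0.27 (SE), adjusted p = 5.43e-08) and 4.31-fold under pups (log2 change 2.11 ± 0.21 (SE), adjusted p = 4.22e-09).

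Mmp23, a small MMP released from the membrane by furin, was higher in pups by 1.95 ± 0.16 (SE) against adults and 2.29 ± 0.16 against old rats on the log2 scale. Mmp24, a membrane-type protease of neural tissue, was called against adults alone (log2 change 1.08 ± 0.23 (SE), adjusted p = 2.06e-04). Measured from the median change of all transcripts the difference was 0.93, and the call was lost with quantile normalization (0.71, adjusted p = 0.0143) and with normexp and quantile normalization (0.66, adjusted p = 0.0182). The array file and RefSeq place this gene on different chromosomes, so what the probe reads is in doubt. Mmp15, another membrane-type protease, was called in no age comparison (changes -0.51, -0.24 and 0.27). The 2 probes of Mmp16, a further membrane-type protease, disagreed in sign for newborn against old, with 0.57 from the brighter probe 1 and -0.59 from probe 2, and neither was called.

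Mmp12 (macrophage metalloelastase) was the one MMP of the common set called lower in pups. It ran from -3.13 to 0.58 in the pups (median -0.80), was 0.81, 1.03, 2.37 and 1.47 in adults and 2.16, 0.81, 1.72 and 1.09 in old rats. Every pup lay below every older rat, whereas adult and old rats shared one range. The pups were 5.34-fold below adults (log2 change -2.42 ± 0.34 (SE), adjusted p = 6.02e-07) and 5.44-fold below old rats (log2 change -2.44 ± 0.34 (SE), adjusted p = 6.87e-07), and adult minus old was -0.03 ± 0.43 (SE). It also had the widest spread between littermates among the 36 probes, with a within-litter SD of 0.65 against a median of 0.28 over the members and 0.21 over all transcripts. The summed level of 7 macrophage markers ran from 104 to 193 in pups, 98.8 to 153 in adults and 176 to 250.4 in old rats. Of the 6 markers expressed in every group, 1 was called higher and 0 lower in pups than in adults. Against old rats, 2 were called higher and 2 lower in pups. The part of macrophages in the Mmp12 difference was not tested.

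**Figure D2:**
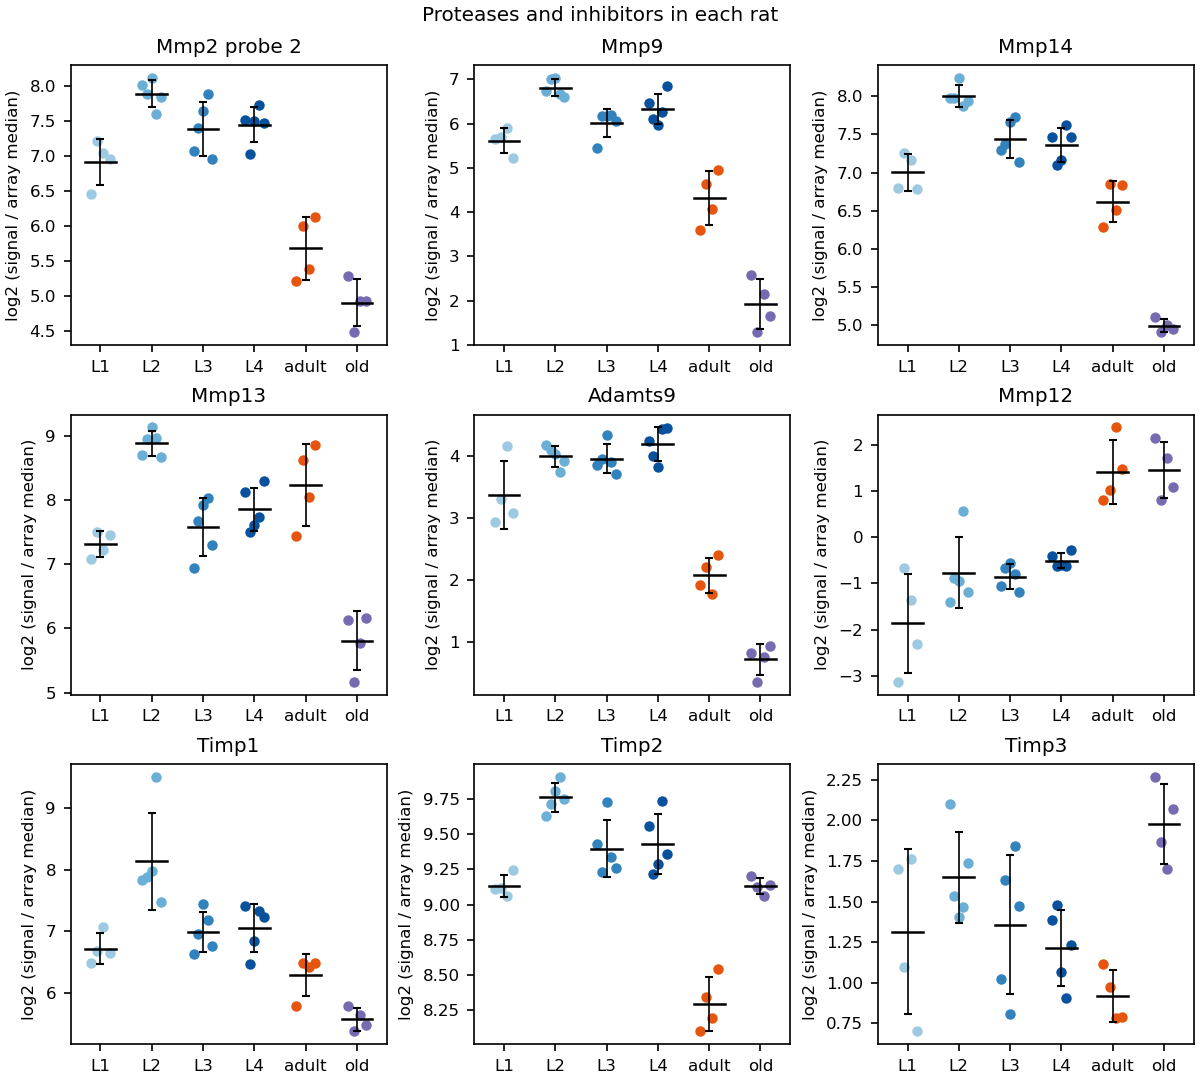
Level of 9 members in each rat (1 point per rat, the arrays of a rat averaged) by group, with the group mean (line) and SD (bar), on a log2 scale relative to the array median. Mmp9 falls from pups to adults to old rats, Mmp13 is low in the old rats alone, Mmp12 is low in the pups, and Timp3 is highest in the old rats.

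Among the inhibitors, Timp2 was lowest in the adults. Timp2 ran from 9.06 to 9.91 in the pups (median 9.36), was 8.10, 8.34, 8.19 and 8.54 in adults and 9.20, 9.12, 9.06 and 9.14 in old rats. Pups were 2.2-fold above adults (log2 change 1.14 ± 0.09 (SE), adjusted p = 3.05e-11), a change of 0.99 relative to the median transcript and under 2-fold with quantile normalization (0.42, or 0.61 with normexp as well), and old rats were above adults without overlap but by less than 2-fold (log2 change -0.84 ± 0.11 (SE), adjusted p = 1.10e-06). Timp1, whose protein also binds the proenzyme of Mmp9, was highest in pups. It ran from 6.48 to 9.51 in the pups (median 7.19), was 5.78, 6.49, 6.42 and 6.49 in adults and 5.79, 5.38, 5.65 and 5.48 in old rats. The adult values overlapped with those of the pups and with those of the old rats, and the call was made for pups against old rats alone (3.15-fold, log2 change 1.66 ± 0.23 (SE), adjusted p = 9.10e-07). Timp3, the inhibitor that binds to the matrix and also inhibits ADAM17, was lowest in adults and highest in old rats. It ran from 0.70 to 2.10 in the pups (median 1.47), was 1.12, 0.97, 0.78 and 0.79 in adults and 2.27, 1.87, 1.70 and 2.07 in old rats. Old rats exceeded adults 2.09-fold with no overlap (log2 change -1.06 ± 0.22 (SE), adjusted p = 2.69e-04). That change was -0.88 relative to the median transcript, and it dropped under 2-fold at the 75th percentile scaling (-0.98), with normexp and quantile normalization (-0.68) and without old rat 17 (-0.96).

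The secreted ADAMTS proteases expressed in every group were Adamts5, Adamts7 and Adamts9. Adamts9, which cuts aggrecan and versican, ran from 2.94 to 4.44 in the pups (median 3.96), was 1.92, 2.21, 1.78 and 2.41 in adults and 0.84, 0.36, 0.76 and 0.95 in old rats. It fell at each age without overlap, 3.47-fold from pups to adults (log2 change 1.79 ± 0.16 (SE), adjusted p = 3.93e-10) and 2.56-fold from adults to old rats (log2 change 1.35 ± 0.21 (SE), adjusted p = 5.65e-06). Adamts5, the main aggrecanase of mouse cartilage, was lower in old rats than in pups (log2 change 1.79 ± 0.20 (SE), adjusted p = 2.34e-08) and adults (log2 change 1.17 ± 0.26 (SE), adjusted p = 3.82e-04). With normexp and quantile normalization the newborn against old call of Adamts5 was lost (0.83), as were the adult against old calls of Adamts5 (0.43) and Adamts9 (0.86). The adult against old call of Adamts5 was also lost without old rat 18 (0.98) and with the methods' t-test. Adamts7 was not called (changes 0.21, -0.32 and -0.53). Adamtsl4, a fibrillin-binding protein, was lower in pups than in adults (log2 change -1.79 ± 0.15 (SE), adjusted p = 6.79e-11) and old rats (-1.54). Adamtsl3 was -1.01 ± 0.14 (SD over 4 litters) in pups, -0.04 ± 0.33 (SD, n = 4) in adults and 0.79 ± 0.13 in old rats, and was called for newborn against old (log2 change -1.80 ± 0.16 (SE), adjusted p = 4.06e-10). Adamtsl5 was lowest in adults, 0.71, 1.01, 0.99 and 1.17 against 2.27, 2.27, 2.28 and 2.34 in old rats (log2 change -1.32 ± 0.16 (SE), adjusted p = 2.46e-07). With normexp and quantile normalization the newborn against old calls of Adamtsl3 (-0.83) and Adamtsl4 (-0.96) and the adult against old call of Adamtsl5 (-0.88) were lost.

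ADAM transcripts were lower in pups wherever they were called between pups and older rats. Adam9, a widely expressed sheddase, ran from 0.53 to 1.77 in the pups (median 1.01) on its brighter probe 2, against 2.14, 2.20, 2.85 and 2.74 in adults and 1.87, 1.71, 1.93 and 1.98 in old rats. Adults were above the pups with both probes (probe 2: log2 change -1.39 ± 0.16 (SE), adjusted p = 1.80e-08, probe 1: -1.85), and above the old rats at 2-fold with probe 1 alone (1.03 against 0.61). That probe 1 call was lost without any of the rats 15, 16 or 17 (0.95, 0.94 and 0.98) and with normexp and quantile normalization (0.86), as was the newborn against adult call of probe 2 (-0.88). Adam28, known from lymphocytes, was 1.89 ± 0.14 (SD over 4 litters) in pups, 3.43 ± 0.16 (SD, n = 4) in adults and 3.45 ± 0.19 in old rats, a step between pups and older rats of -1.54 and -1.56. Adam23, a neuronal ADAM without protease activity that binds Lgi1, was 0.87 in pups, 1.80 in adults and 2.37 in old rats, and was called for newborn against old (log2 change -1.50 ± 0.08 (SE), adjusted p = 1.44e-14). Adam17, the enzyme that releases tumour necrosis factor, and Adam15, Adam33 and Adam1a were called in no age comparison, with changes between -0.25 and 0.44. Adam8, a gene of leukocytes and osteoclasts, was higher in pups by less than 2-fold. Its probe 1 changed by 0.73 against adults (limma adjusted p = 5.39e-08) and 0.52 against old rats, and its probe 2 by 0.44 and 0.85 (limma adjusted p = 5.09e-11 for old rats).

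Several ADAM genes had probes that did not give the same answer. Adam10, the sheddase of Notch and of the amyloid precursor, had 3 probes. The brightest, probe 1, ran from 4.50 to 4.98 in the pups (median 4.77), and stood at 4.78, 4.67, 4.88 and 4.85 in adults and 4.61, 4.71, 4.70 and 4.82 in old rats, so that all 3 ages overlapped. The dimmer probe 2 was -0.40, -0.56, 0.26 and 0.18 in adults, above every pup (highest -0.65), and was called lower in pups (log2 change -1.26 ± 0.13 (SE), adjusted p = 8.11e-09). The probe 2 change was -0.37 with normexp and quantile normalization, and the call was lost. Probe 3 changed by -0.86 without reaching 2-fold. The 3 probes matched distinct positions on chromosome 8 of build rn3, and whether they read the same transcript forms was not tested. Adam4 was called lower in pups than adults with probe 2 (-1.11) and just missed 2-fold with probe 1 (-0.95). The probe 2 call was lost without adult rat 16 (-0.98) and with normexp and quantile normalization (-0.38).

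**Figure D3:**
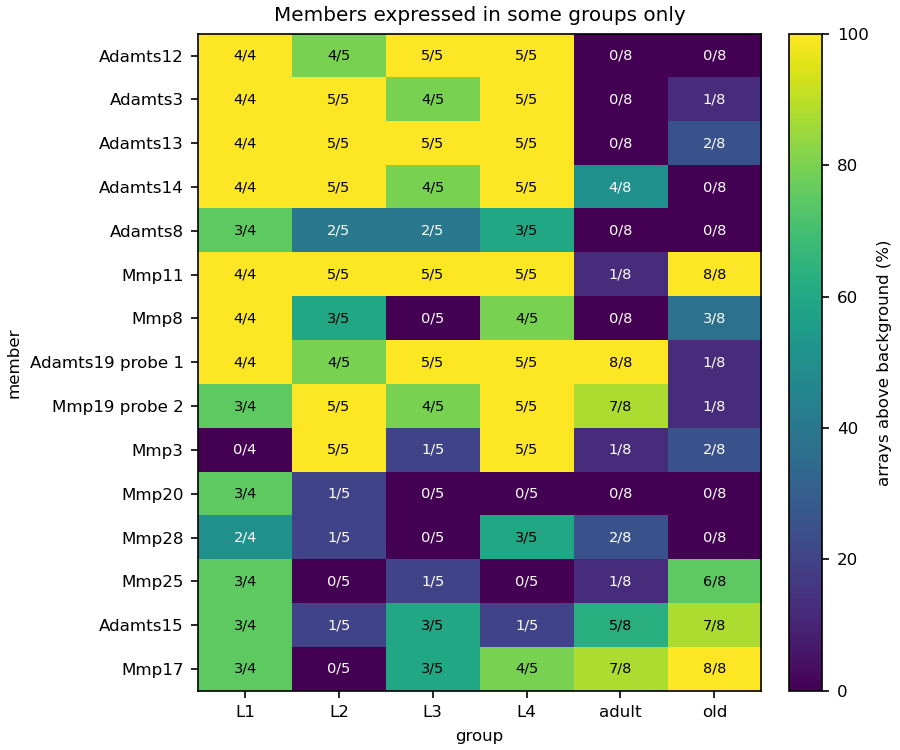
Arrays above background out of the arrays of each group (numbers; colour shows percent) for the 15 member probes expressed in some groups but not in all. Adamts3, Adamts8, Adamts12, Adamts13 and Adamts14 were detected mainly in pups, Mmp11 in pups and old rats, and Mmp20 on 3 of 4 arrays of L1.

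Of the members outside the common set, 9 were expressed in at least 1 litter and in neither older group. They were Adamts3, Adamts12, Adamts13 and Adamts14 in 4 litters, Mmp8 in 3, Adamts8 and Mmp3 in 2, and Mmp20 and Mmp28 in 1. Pups could pass in any of 4 litters and each older age in 1 group alone, so the rule favours pups. The matching share over all probes of the array is not given, so the count cannot show an excess in this family. Outside the common set the adjusted p came from the fit on all 41012 probes, and a fold is a lower bound for a probe that no array of the lower group measured. Adamts12 was above background on 18 of 19 pup arrays and on 0 of 8 adult and 0 of 8 old arrays, and was at least 2.57-fold higher in pups than in adults (adjusted p = 4.50e-07). Against the old rats its bound was 2.25-fold (adjusted p = 7.21e-05). Adamts3, which with Adamts14 removes the amino propeptide of procollagens, was above background on 18 pup arrays, 0 adult and 1 old array and was at least 3.01-fold higher in pups than in adults (adjusted p = 8.61e-09). Adamts14 was above background on 18 pup arrays, 4 adult and 0 old arrays and was at least 2.28-fold higher in pups than in old rats (adjusted p = 3.99e-12). Adamts13, the protease of von Willebrand factor, was above background on 19 of 19 pup arrays, 0 adult and 2 old arrays, at least 2.46-fold higher in pups than in adults (adjusted p = 5.91e-09). Adamts8 was above background on 10 of 19 pup arrays, and its bound was 1.28-fold against adults. These probes lay near the background, and with normexp and quantile normalization together the changes of these 5 ADAMTS genes between pups and adult or old rats were 0.26 to 0.54 on the log2 scale, under 2-fold, with adjusted p still under 0.01.

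Adamts19 was detected from birth to adulthood, on 18 of 19 pup arrays, 8 of 8 adult arrays and 1 of 8 old arrays with probe 1. Its level was -1.27, -1.17, -1.30 and -0.97 in adults and -2.90, -3.12, -2.42 and -2.93 in old rats, without overlap (adjusted p = 2.88e-05 in the fit on all probes). Since 1 of 8 old arrays measured it, no fold is given, and with normexp and quantile normalization the change was 0.34 (adjusted p = 0.0215), which was not called. Mmp11 (stromelysin 3, which furin activates inside the cell) was lowest in adults. It ran from 0.01 to 1.51 in the pups (median 0.64), was -2.99, -2.36, -2.74 and -2.51 in adults and -0.04, -0.20, -0.22 and -0.07 in old rats, and was above background on 19 of 19, 1 of 8 and 8 of 8 arrays. Adults were below pups (adjusted p = 7.56e-13 in the fit on all probes) and below old rats (adjusted p = 2.95e-08). Since 1 of 8 adult arrays measured it, no fold is given. With normexp and quantile normalization the changes were 0.96 and -0.55, under 2-fold, so both calls were lost. The adults were also the rats scanned on separate days, and the part of the scan in this difference cannot be told apart from age. Mmp3 (stromelysin 1) was above background on 5 of 5 arrays of L2 and of L4, 1 of 5 of L3 and 0 of 4 of L1, and on 1 adult and 2 old arrays. Mmp19 was detected on 17 pup and 7 adult arrays and 1 old array with probe 2, and Mmp28 on 6, 2 and 0. Mmp17 and Mmp25, proteases with a lipid anchor, were above background on 8 and 6 of 8 old arrays and on 10 and 4 of 19 pup arrays, and Adamts15 on 7 of 8 and 8 of 19.

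10 of the MMP genes lie side by side on chromosome 8, with their probes within 365.2 kb at 8:4168554-4533706 of build rn3, in the order Mmp13, Mmp12, Mmp1b, Mmp3, Mmp1a, Mmp10, Mmp8, Mmp27, Mmp20 and Mmp7. The neighbours differed from each other with age. Mmp13 was high in pups and adults, and Mmp12, the next gene, was low in pups. Only these 2 of the 10 were expressed in every group. Mmp8, the neutrophil collagenase, was above background on 4 of 4 arrays of L1, 3 of 5 of L2, 0 of 5 of L3 and 4 of 5 of L4, and on 3 old arrays. Mmp1a, Mmp1b, Mmp7 and Mmp10 were above background on 1 to 4 arrays each, and Mmp27 on none. Of the 9 genes of this run with an entry in the RefSeq promoter table (build GRCr8, 250 bases before to 50 after the start), 6 held the letters TGANTCA, the site known for the AP-1 factors Fos and Jun, on either strand. This motif was found in 7.33% of the 33469 promoters of the table and in 1 of the 43 other promoters of members, that of Adam24. In the 6 genes its first base stood 61 to 96 bases before the start, followed by TATAAA, whose first base was 32 to 59 bases before the start. TATAAA on either strand was present in 14.2% of all promoters. A match describes the letters and not a bound site. The promoters of Mmp13 and Mmp12, whose levels moved in different ways with age, and that of Mmp20 are shown from 5′ to 3′ on the strand of the gene, with the match in capitals.
Mmp13, chr8:12782579-12782878, plus strand: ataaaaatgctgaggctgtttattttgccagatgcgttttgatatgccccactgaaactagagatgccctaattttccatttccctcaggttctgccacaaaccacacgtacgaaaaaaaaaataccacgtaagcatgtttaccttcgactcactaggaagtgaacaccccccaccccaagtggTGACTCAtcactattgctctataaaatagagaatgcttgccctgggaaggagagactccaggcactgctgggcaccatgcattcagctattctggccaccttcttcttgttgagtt
Mmp12, chr8:12866402-12866701, plus strand: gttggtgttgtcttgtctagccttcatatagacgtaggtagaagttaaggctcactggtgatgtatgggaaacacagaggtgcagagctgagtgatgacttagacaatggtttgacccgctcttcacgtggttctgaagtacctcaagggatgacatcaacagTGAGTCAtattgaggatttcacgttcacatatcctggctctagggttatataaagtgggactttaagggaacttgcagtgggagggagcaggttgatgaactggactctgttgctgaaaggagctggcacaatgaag
Mmp20, chr8:13074029-13074328, plus strand: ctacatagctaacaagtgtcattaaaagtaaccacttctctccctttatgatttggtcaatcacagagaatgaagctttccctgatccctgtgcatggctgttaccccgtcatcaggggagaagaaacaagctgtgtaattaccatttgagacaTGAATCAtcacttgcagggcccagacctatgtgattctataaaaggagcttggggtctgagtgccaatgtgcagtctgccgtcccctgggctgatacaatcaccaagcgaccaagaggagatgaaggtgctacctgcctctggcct

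**Figure D4:**
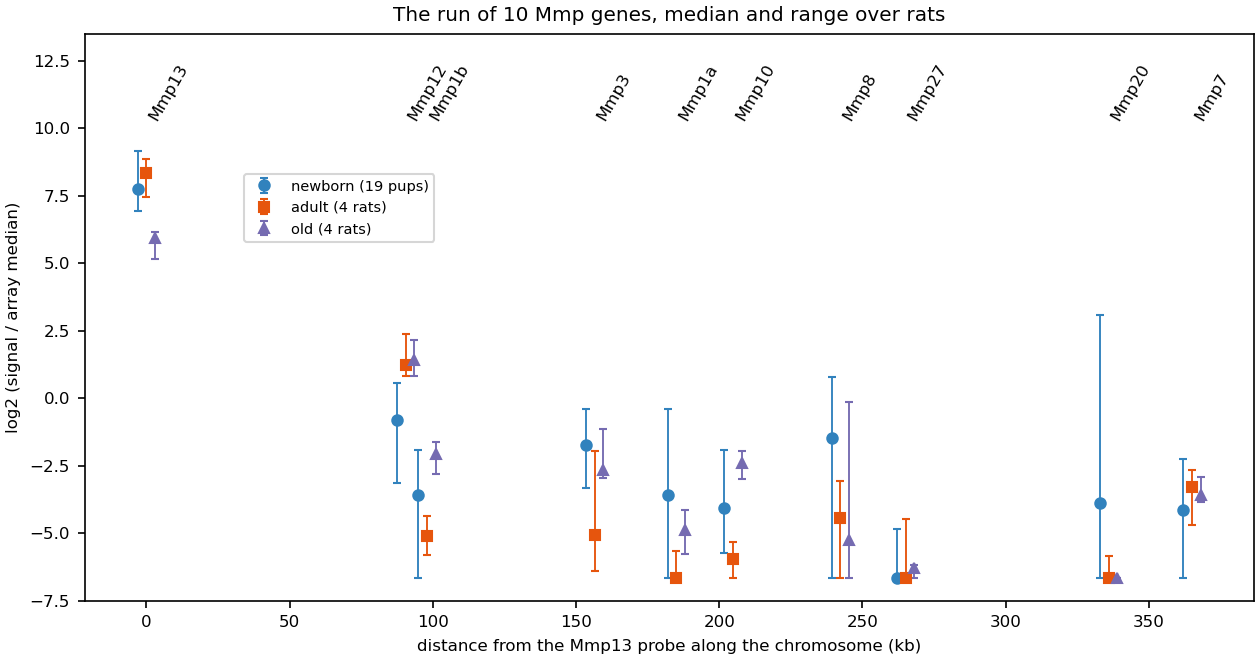
Median level (symbol) and range (bar) over 19 pups, 4 adult and 4 old rats for the 10 Mmp genes of chromosome 8, placed by the distance of their probe from that of Mmp13 in kb, on a log2 scale relative to the array median (values were floored at -6.64). Mmp13 is high at birth and in adults, Mmp12 is higher in both older groups, and Mmp20 and Mmp8 spread widely between pups.

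Mmp20 (enamelysin, an enzyme of enamel formation in the tooth) set single pups apart. Its probe crosses a splice junction, since its 60 bases match over 1419 bases at 8:4504579-4505997 (rn3), and it reads 5′ to 3′ as follows.
Mmp20 probe: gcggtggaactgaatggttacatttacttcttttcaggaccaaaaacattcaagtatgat
The level was 1.03, -1.73, 3.08 and -3.18 in the pups of L1 and -6.64, -6.64, -1.90, -3.91 and -1.24 in those of L2. L3 pups stood at -6.64, -6.64, -2.72, -3.89 and -2.40, and the L4 pups at -2.64, -6.64, -6.64, -6.64 and -5.52. It was above background in 3 pups of L1 and 1 of L2, and on none of the 16 adult and old arrays. Because of this spread, the levels of genes for tooth matrix proteins, chosen after these values were seen, are given beside it. The enamel protein Amelx was 11.46, 6.99, 12.45 and 5.67 in the same pups of L1 and 2.33, 2.25, 8.83, 4.26 and 8.72 in the L2 pups. L3 pups had 0.60, 1.18, -0.36, 4.62 and 5.80, and L4 pups 5.99, 3.58, -1.49, 2.35 and 7.89. It was above background on 19 of 19 pup arrays and on none of the adult and old arrays. In Ambn, a second enamel protein, L1 was 8.56, 3.63, 10.81 and 2.80. The 4 pups with the most Mmp20 held 3 of the 4 with the most Amelx, and likewise 3 of 4 for Ambn, for the enamel protein Enam and for the dentine protein Dspp, and 2 of 4 for the enamel protease Klk4. Ambn, Dspp, Klk4 and Enam were above background on 17, 10, 4 and 2 of 19 pup arrays. Dspp was also above background on 3 of 8 old arrays and Klk4 on 1 of 8 adult arrays, and Ambn and Enam on no adult or old array. Enam was measured in 2 pups of L1 alone, so its ranks in the other litters come from readings below background. Within an age of 3 to 5 days the pups thus ranged from -1.49 to 12.45 in Amelx. The part of tooth tissue in other members was not tested.

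**Figure D5:**
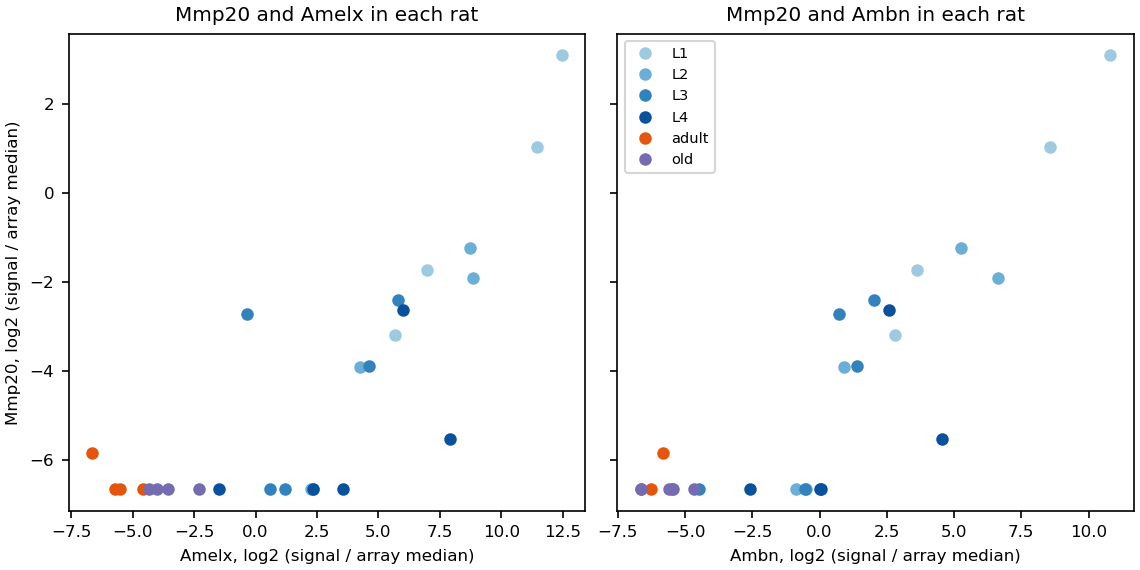
Level of Mmp20 against those of the enamel genes Amelx and Ambn in each of the 27 rats (1 point per rat, coloured by group), all on a log2 scale relative to the array median. Adult and old rats lie at -5.84 or below for Mmp20, and the 2 pups with the most Mmp20 (3.08 and 1.03, both of L1) have the most Amelx and Ambn.

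Litters of the same age differed in 13 of the 36 member probes (36.1%, limma's moderated F test, adjusted p under 0.01), against 37.9% of all transcripts, so the share was near the background. For 9 of the 13 (69.2%) the highest litter was L2, against 50.5% of the 8976 transcripts called, and for 11 (84.6%) the lowest was L1, against 65.6%. Mmp13 was 7.32 ± 0.20 (SD, n = 4) in L1, 8.89 ± 0.20 (SD, n = 5) in L2, 7.58 ± 0.45 in L3 and 7.86 ± 0.34 in L4, a 2.97-fold difference between the extremes (limma adjusted p = 6.97e-05). L2 lay above the other litters without overlap. Mmp14 spanned 2-fold (limma adjusted p = 2.38e-05), Mmp2 2.51-fold with probe 1 (adjusted p = 1.21e-04), Mmp9 2.29-fold (adjusted p = 0.0024), Timp1 2.67-fold (adjusted p = 6.47e-04) and Timp2 1.55-fold (adjusted p = 3.55e-04), all from L1 to L2. Adam8 probe 2 had the strongest F with a small difference, 5.19 ± 0.05 in L1 and 5.82 ± 0.12 in L4 (1.55-fold, adjusted p = 1.90e-07). Adam15 (1.57-fold), Mmp16 probe 1 (1.57-fold) and Adam4 probe 1 (1.56-fold) were the others among the 8 probes with the largest F. Among L2, L3 and L4 alone, 4 members were called, and with the slide as a random block 8 were. L1 was scanned on another day than the other litters, and litter and slide largely coincide, so they cannot be told apart. The summed level of 5 osteoclast markers ran from 2368 to 3107 in L2, 1166 to 1669 in L1, 1365 to 1928 in L3 and 1615 to 3137 in L4, and its part in these differences was not tested.

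Within the adult group the same 2 rats were the higher for many members. Rats 14 and 16, a pair chosen after the values were seen, both exceeded rats 13 and 15 in 16 of the 36 member probes (44.4%, against 8.62% of all transcripts), among them Mmp2, Mmp9, Mmp13, Mmp14, Mmp23, Adamts5, Adamts9, Timp1 and Timp2. Both lay below the other two in 3 probes (8.33%, against 22.6%). Because the pair was picked from these same member values, the shares describe the members and cannot test for an excess. The summed level of 7 osteoblast markers was 1214 and 1412 in these 2 rats and 800.4 and 780.4 in the other two, and that of the osteoclast markers 773 and 954 against 472 and 559. The order was the same for fibroblast markers (88.0 and 97.2 against 58.3 and 65.5) and cartilage markers (58.7 and 78.4 against 42.2 and 48.9). It was the reverse for mature neuron markers (1123 and 1003 against 1358 and 1241). Macrophage, neutrophil, endothelial and muscle sums followed neither order. The part of any of these in the order of the rats was not tested. Rats 13 and 14 were on a slide apart from rats 15 and 16. The 2 sides of an adult rat also differed for these genes, by a median of 0.85 (log2) for Mmp2 probe 2, 0.82 for Mmp9 and 0.79 for Mmp13, whereas the median member differed by 0.24 between sides in adults and 0.18 in old rats.

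The summed levels of markers of other tissues are given for pups, adults and old rats. In bulk samples, fewer cells of a type and less RNA per cell cannot be told apart. The osteoblast sum was 647 to 2295 in pups, 780.4 to 1412 in adults and 274 to 495 in old rats, so that the old rats alone lay lower, as for Mmp13. Its markers did not all follow the sum. Of the 5 expressed in every group, 0 were called higher and 2 lower in pups than in adults. Against old rats, 3 of the 5 were called higher in pups and 3 in adults, and the others were not called. The osteoclast sum was 1166 to 3137, 472 to 954 and 186 to 284, lower at each age without overlap, as for Mmp9. Of its 4 markers expressed in every group, Acp5 changed by 1.60 (newborn minus adult) and Tnfrsf11a by -1.56, both called, while Atp6v0d2 (-0.24) and Dcstamp (0.47) were not. The sum of 6 cartilage markers was 73.9 to 159, 42.2 to 78.4 and 26.4 to 28.1, and that of 5 fibroblast markers 137 to 305, 58.3 to 97.2 and 46.2 to 56. For 5 endothelial markers, of which Tek was above background on no array, it was 26 to 82.1, 14.1 to 15.9 and 10.3 to 13.4, and for 5 muscle markers 8.73 to 336, 0.769 to 1.75 and 0.628 to 1.2. The sum of 6 neutrophil markers, of which Ltf was above background on no array, was 20.6 to 196, 3.71 to 11.4 and 5.31 to 59.9. The part of any of these in the member differences was not tested.

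The comparison of newborn with old rats could also be made within 1 scan day, for 1 litter alone. L1 and the old rats were on separate slides, so age and slide cannot be told apart in it. With L1 alone against the old rats, all scanned on the same day, 16 members were called, 10 higher (27.8%, against 7.89% of all transcripts) and 6 lower in L1 (16.7%, against 10.7%). Among them Mmp9 was 5.62 in L1 and 1.92 in old rats (13-fold, limma adjusted p = 5.98e-06), Adamts9 3.37 and 0.73 (6.26-fold), Mmp14 7.0 and 4.99 (4.03-fold) and Timp1 6.72 and 5.57 (2.22-fold). Mmp12 was -1.86 in L1 and 1.45 in old rats, 9.92-fold lower at birth (limma adjusted p = 4.15e-04). Neither comparison that involves adults can be made within a scan day.

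Substrates of these enzymes were mostly higher in pups. Of 14 genes for matrix substrates expressed in every group, 9 were called higher and 1 lower in pups than in adults (against 13.9% and 9.05% of all transcripts). In pups against old rats 10 were higher and 0 lower (9.55% and 8.86%). The median log2 changes of the 14 genes were 1.65 and 2.63, whereas the median of all transcripts was 0.15 and -0.03. Col3a1 changed by 4.23 ± 0.18 (SE), adjusted p = 8.67e-16 between pups and old rats, Col1a1 by 3.65, the basement membrane collagen Col4a1 by 3.41 and Fn1 (fibronectin) by 3.35. The cartilage collagen Col2a1 changed by 5.09. From adults to old rats 4 of the 14 substrates fell (against 4.66% of all transcripts), namely Col1a1, Col1a2, Col3a1 and Fn1. Of 18 genes for partners of the proteases, 2 were higher and 1 lower in pups than in adults (against 13.9% and 9.05% of all transcripts), 5 were higher and 1 lower in pups than in old rats (9.55% and 8.86%), and 3 were higher and 1 lower in adults than in old rats (4.66% and 7.49%). Ctsk, the collagenase of osteoclasts that acts beside Mmp9, changed by 4.86 ± 0.28 (SE), adjusted p = 1.99e-13 between pups and old rats and by 5.07 between adults and old rats. Bmp1 and its enhancer Pcolce, which process procollagen at the other end from Adamts3 and Adamts14, changed by 1.78 and 2.29, and the broad inhibitor A2m by 1.80. Serpine2, an inhibitor of thrombin and plasminogen activators, was lower in pups than in old rats (-1.21 ± 0.08 (SE), adjusted p = 6.17e-12), and Spock2, a testican proteoglycan, was lower in adults than in old rats (-1.43).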

How the data were processed

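RNA of olfactory epithelium was hybridised to 35 arrays (19 pups from 4 litters, 4 adult and 4 old rats with 2 arrays each), which the authors read with Agilent Feature Extraction. The deposited files hold spot intensities after local background subtraction and detrending within the array, with flags for signal above background and probe positions on build rn3. The deposited value table holds a ratio that the authors formed by scaling first to the array median and then to 1 constant per probe. Its scale was checked against the scanner intensities (99.8% of 41012 probes were offset by a constant, column medians 0.723 to 0.978).

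Intensities were divided by the array median, floored at 0.01, put on the log2 scale and averaged over the spots of a probe and the arrays of a rat. limma 3.58.1 (R 4.3.3) fitted the 6 groups together, and the mean of the 4 litters stood for newborns. Adjusted p-values are Benjamini-Hochberg values over the 23668 transcripts expressed in every group, or over all 41012 probes for members outside that set. A call needed an adjusted p under 0.01 and, between ages, a fold of at least 2. The fit was first checked on simulated data. Nothing in the labels excludes shared handling of littermates. Each litter had its own mean in the fit, so p-values measure the spread between rats within a litter or age group. Differences between litters do not enter the SE or p-value of the newborn comparisons. With litter means as the newborn replicates, 14 members were called against adults and 14 against old rats. The number of arrays limits the precision. Median background-subtracted signals ran from 81.6 to 162 on adult arrays, 37.1 to 55.3 on old arrays and 42.1 to 87.7 on pup arrays. The part of this brightness in the comparisons with adults was not tested.

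Members named with values were each Timp, called members by size of change (up to 12 per direction and age comparison), by F among litters (up to 8) and by adjusted p outside the common set (up to 10). The brightest probe stands for a gene, with its other probes where they differed in call or direction. Other members named, such as the chromosome 8 genes, Adam17, Mmp15 and Mmp17, and the tooth genes were chosen after their values were seen. The members and the gene lists were chosen with earlier results of these data known. Alternatives were other scaling, background correction, filters, folds, replicate units, batch blocks, the methods' t-test and leaving out each rat. Promoters are from RefSeq (GRCr8), and 52 promoters of 42 member genes were matched. The result of 1 gene of the matrix substrate list is not reported here.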

Additional observations from a re-analysis of the deposited data

Results flagged for a closer look

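Of 216 sets of values from 1 member in 1 group, 14 (6.48%) held a rat far from the others by Dixon's ratio, where chance gives about 1 in 20. The levels are log2 over the array median. Adam10 probe 2 was highest of L2 in rat 24, at -1.19 where the next rat was at -1.32. Adamts19 probe 1 was lowest of L2 in rat 24, at -1.73 where the next rat was at -1.03. Mmp12 was highest of L2 in rat 24, at 0.58 where the next rat was at -0.88. Timp1 was highest of L2 in rat 24, at 9.51 where the next rat was at 7.98. Adam10 probe 2 was highest of L4 in rat 35, at -1.35 where the next rat was at -1.58. Adam4 probe 1 was highest of L4 in rat 35, at 0.17 where the next rat was at -0.15. Adam28 was lowest of L2 in rat 21, at 1.34 where the next rat was at 1.77. Adam4 probe 1 was highest of the adult group in rat 16, at 1.11 where the next rat was at 0.64. Mmp16 probe 1 was highest of the adult group in rat 16, at 4.16 where the next rat was at 3.92. Adamts12 was highest of L2 in rat 25, at 0.86 where the next rat was at -1.11. Adamts14 was lowest of the old group in rat 20, at -5.54 where the next rat was at -4.48. Adamtsl5 was highest of the old group in rat 20, at 2.34 where the next rat was at 2.28. Mmp9 was lowest of L3 in rat 26, at 5.45 where the next rat was at 6.06. Timp1 was lowest of the adult group in rat 13, at 5.78 where the next rat was at 6.42.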

How the results depend on the processing

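The number of members called moved by over 1.5 times under these alternatives. For newborn against adult rats (14 called) it was 9 with normexp and quantile normalization, 24 with no filter on dim probes, 28 with no fold required and 1 at 5-fold. For newborn against old rats (14 called) it was 25 with no filter, 27 with no fold and 6 at 5-fold. For adult against old rats (8 called) it was 5 with normexp and quantile normalization, 17 with no filter, 19 with no fold and 2 at 5-fold. Among litters (13 called) it was 8 with the slide as a random block and 4 over L2, L3 and L4 alone. For partners and substrates together, newborn against adult (13 called) gave 21 with no fold and 3 at 5-fold, newborn against old (16 called) gave 10 at 5-fold, and adult against old (8 called) gave 13 with no fold and 3 at 5-fold. Apart from the filters and folds, whose construction sets the count, the cause was not tested.

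Leaving out 1 rat at a time gave 13 to 15, 14 to 14 and 6 to 10 calls for the 3 age comparisons, 11 to 15 among litters, and 12 to 14, 15 to 16 and 8 to 8 for partners and substrates. Of 2678 values for 69 results of single members, 0 were reversed, 79 lost the call and 3 gained it, and the other 2596 kept direction and side of the threshold. No paired analysis was possible because replicate numbers are rat numbers that no 2 groups share.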
